A study of Drosophila melanogaster with 8 samples.

Results

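Adult Drosophila melanogaster muscle was set beside adult whole fly in wildtype animals, using the 4 wildtype libraries of a series of 8 (2 of muscle and 2 of whole fly). The other 4 libraries, muscle and whole fly of flies labelled mutant and described as a knockout of anw, entered only as a second look at the same tissue difference. The culture temperature was 25 °C for all flies, and each mRNA library was built from 1.3 µg of total RNA. The labels used here give no strain, age or sex, do not say which muscles were taken or how, and do not say that the repeats came from separate flies, so the spread between repeats may be technical. The same tissue is also part of the whole fly, which limits how large a difference can become where the muscle in both is alike.

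Gene levels were deposited as FPKM, reads per kilobase of gene and per library total, in 1 table for muscle and another for whole fly. Each table has its own annotation and its own scaling, so tissue and table cannot be told apart, and no p-value is given for any difference between them. Protein-coding nuclear genes with the same symbol at the same locus were paired, which gave 13428 genes, and each library was rescaled to a sum of 1000000 over them. Of these, 11271 had a mean rescaled value of at least 1 in either tissue. A gene is called higher in a tissue when both of its libraries exceed both libraries of the other tissue by at least 8-fold on the rescaled value plus 1. Folds are ratios of mean rescaled values unless they are said to be on that scale. FPKM values are listed for library 1 and then library 2, and all positions are those of release 6 of the fly genome.

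Insect muscle contracts by sliding thick filaments of myosin past thin filaments of actin, which troponin and tropomyosin gate by calcium, while titin-like proteins and Z-discs hold the lattice. Flight muscle is among the most oxidative tissues known and is packed with mitochondria that burn carbohydrate. A whole fly adds to this the eyes and brain, the gut, fat body, ovaries or testes and their glands.

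The muscle label was checked against its markers. Mhc, which encodes the muscle myosin heavy chain, was at 748 and 1129 FPKM in muscle and 292 and 274 FPKM in whole fly. Act88F, which encodes the flight muscle actin, was at 2169 and 3910.0 FPKM in muscle and 739 and 598 FPKM in whole fly. Mlc2, which encodes the regulatory myosin light chain, was at 3524 and 4392 FPKM in muscle and 955 and 809.8 FPKM in whole fly. Both muscle libraries lay above both whole-fly libraries for each of these genes, with ratios of 3.34, 4.6 and 4.51. All 10 muscle markers examined (also Mlc1, Prm, bt, sls, wupA, up and Tm2) were higher in every pair of libraries, as were 16.5% of all genes tested, and their summed rescaled value was 4.73 times that of whole fly.

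The muscle libraries were not free of RNA of other tissues. Eye markers (ninaE, Arr2 and ninaC) summed to 0.278 and 0.721 rescaled units in muscle against 3761 and 4071 in whole fly. Gut enzymes (alphaTry, betaTry, Amy-p, Mal-A1, Jon25Bi and Jon66Ci) summed to 16641 and 24034 units in muscle against 28436 and 26905 in whole fly. Most of each sum came from alphaTry (6826 and 9994 units in muscle) and betaTry (7205 and 10542). Yolk protein genes (Yp1, Yp2 and Yp3) summed to 50080 and 28518 units in muscle against 13643 and 13276 in whole fly. Eggshell markers summed to 630 and 302 units in muscle against 5047 and 5998, and testis markers to 86.4 and 31.3 against 441 and 515. Of the eye markers, all 3 were higher in whole fly in every pair, as were 74.4% of all genes tested, and 2 had 3 reads or fewer in both muscle libraries. Of the gut markers, 5 of 6 were higher in whole fly in every pair, and 1 had 3 reads or fewer in both muscle libraries. All 3 yolk markers were higher in muscle. The part of such RNA in the other differences was not tested.

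Few genes stood far above their whole-fly level in muscle, and many stood far below it. At 8-fold, 20 genes (0.177% of the 11271) were higher in muscle and 387 (3.43%) were higher in whole fly. At 4-fold these numbers were 108 (0.958%) and 1423 (12.6%). Without muscle library 1 the 8-fold counts were 33 and 862. Leaving out a library leaves fewer pairs to satisfy, so such counts, here and below, can only stay or rise. The median log2 difference of the 11271 genes was -0.90, with 8948 genes below 0, so a count of genes higher in every pair is read against 16.5% for muscle and 74.4% for whole fly (37.2% and 50% with median-ratio scaling, described next). The 10 highest genes held 15.7% and 13.2% of the muscle libraries and 8.0% and 7.71% of the whole-fly libraries. When libraries were instead aligned on the median ratio of genes, the median moved to -0.18, 68 genes (0.608%) were called higher in muscle and 206 (1.84%) in whole fly, and the muscle share of all calls went from 4.91% to 24.8%. At 4-fold it gave 334 (2.98%) and 568 (5.08%). That scaling multiplied every muscle to whole-fly ratio by 1.73, so a gene given below as higher in whole fly by less than this turns its direction under it. It cannot turn a gene or list that is higher in muscle. List medians, which take all matched members, are therefore read against -0.68, the median over all 13428 genes on the same log2 scale. Where nearly all members of a list passed the filter, the -0.90 of the 11271 genes is the closer reference.

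**Figure D1:**
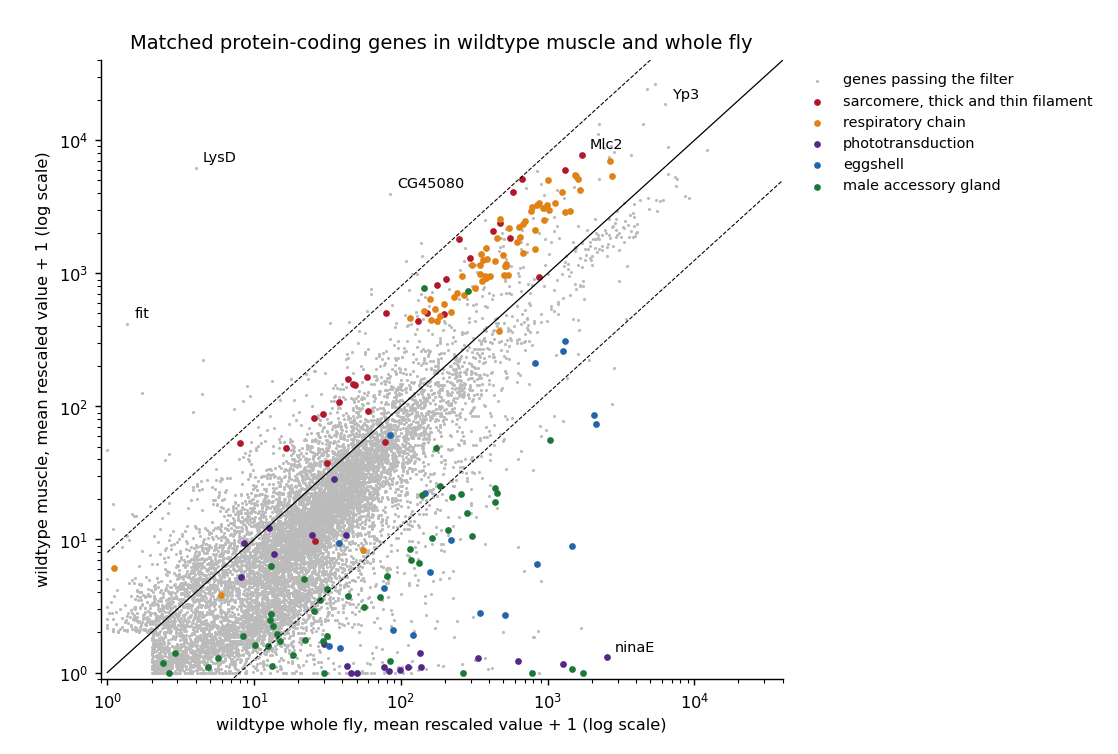
Mean rescaled value plus 1 of each gene in wildtype whole fly (x axis) and wildtype muscle (y axis), both on log scales, with 5 gene groups in colour; the solid line marks equal values and the dashed lines 8-fold differences. Most sarcomere and respiratory chain genes lie between the solid and the upper dashed line, most phototransduction, eggshell and accessory gland genes lie near or below the lower dashed line, and LysD, fit and CG45080 lie far above the upper one.

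Thick filament genes were higher in muscle without exception. All 11 matched genes were higher in every library pair, with a median log2 difference of 1.86, and together they took 1.42% and 1.86% in muscle and 0.371% and 0.333% in whole fly. Mlc1, which encodes the essential myosin light chain, was at 1841 and 2293 FPKM in muscle and 318 and 279 FPKM in whole fly, with a ratio of 6.97. fln, which encodes flightin, a flight muscle thick filament protein, was at 23.9 and 29.4 FPKM in muscle and 4.13 and 3.05 FPKM in whole fly, with a ratio of 7.48. Mlp84B, which encodes a LIM protein of the Z-disc region, was at 424 and 408 FPKM in muscle and 93.6 and 86.1 FPKM in whole fly, with a ratio of 4.64. These 3 genes met the 4-fold rule in all pairs, and the groups did not overlap for any of them.

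The long structural proteins differed less. Prm, which encodes paramyosin, was at 428 and 493 FPKM in muscle and 108 and 98 FPKM in whole fly, with a ratio of 4.49. sls, which encodes the titin-like protein sallimus, was at 23.1 and 25.7 FPKM in muscle and 7.87 and 7.94 FPKM in whole fly, with a ratio of 3.1, and the related kinase gene bt was 3.17 times higher in muscle. Strn-Mlck, another titin-family kinase gene, had the smallest ratio of the list, 2.89. Without muscle library 1 the number of thick filament genes past 4-fold was 6, without whole-fly library 1 it was 5, and with median-ratio scaling it was 11.

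Thin filament genes were higher as a group but split by isoform. Of 19 matched genes, 15 were higher in muscle in every pair and 2 were lower, with a median log2 difference of 1.58, and the list took 1.79% and 2.58% in muscle and 0.54% and 0.474% in whole fly. Act79B, which encodes an actin of adult tubular muscles, was at 2279 and 2904 FPKM in muscle and 339 and 339.9 FPKM in whole fly, with a ratio of 7.68. TpnC4, which encodes a troponin C isoform of flight muscle, was at 871 and 976 FPKM in muscle and 141 and 114 FPKM in whole fly, with a ratio of 7.3. TpnC41C, which encodes another adult troponin C, was at 261 and 254 FPKM in muscle and 43.8 and 36.3 FPKM in whole fly, with a ratio of 6.46. The troponin T gene up (5.05), the troponin I gene wupA (4.92) and the tropomyosin gene Tm2 (4.41) followed. Act79B, TpnC4, TpnC41C and up were the 4 past 4-fold in every pair, while there were 7 without muscle library 1 and 12 with median-ratio scaling.

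Not every thin filament gene was higher in muscle. Act57B, which encodes a muscle actin, was at 413 and 534 FPKM in muscle and 491 and 406 FPKM in whole fly, and the values of the tissues overlapped. TpnC73F, which encodes a further troponin C, was at 22.8 and 31 FPKM in muscle and 43.5 and 35.3 FPKM in whole fly. DAAM, which encodes a formin that assembles actin, was at 4.43 and 4.43 FPKM in muscle and 12.9 and 12.6 FPKM in whole fly, 2.87 times higher in the latter. Actin genes are near-identical in their coding parts, and reads shared between copies could have been assigned to the wrong one. Lasp, a thin filament gene, was listed at 0 in all libraries. So were ninaA, cup, UQCR-14 and Hsp22, and all 5 overlap another entry in the annotation. DAAM also overlaps other entries yet has reads, and the reason for these 0 values was not tested. A listed 0 is not read as absence here.

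No sarcomere gene passed the 8-fold rule in the rescaled values, where fln and Act79B reached 7.48 and 7.68. With median-ratio scaling, which raises every muscle to whole-fly ratio, 5 of them did (Act79B, Mlc1, TpnC4, TpnC41C and fln). Another 2 muscle genes, outside the lists, had similar ratios. Mf, which encodes myofilin, a thick filament protein, was at 1358 and 1227 FPKM in muscle and 204 and 175 FPKM in whole fly, with a ratio of 6.83. Scp1, which encodes a sarcoplasmic calcium-binding protein, was at 3054 and 2910.4 FPKM in muscle and 461 and 411 FPKM in whole fly, with a ratio of 6.86. Both were picked after their values were seen.

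**Figure D2:**
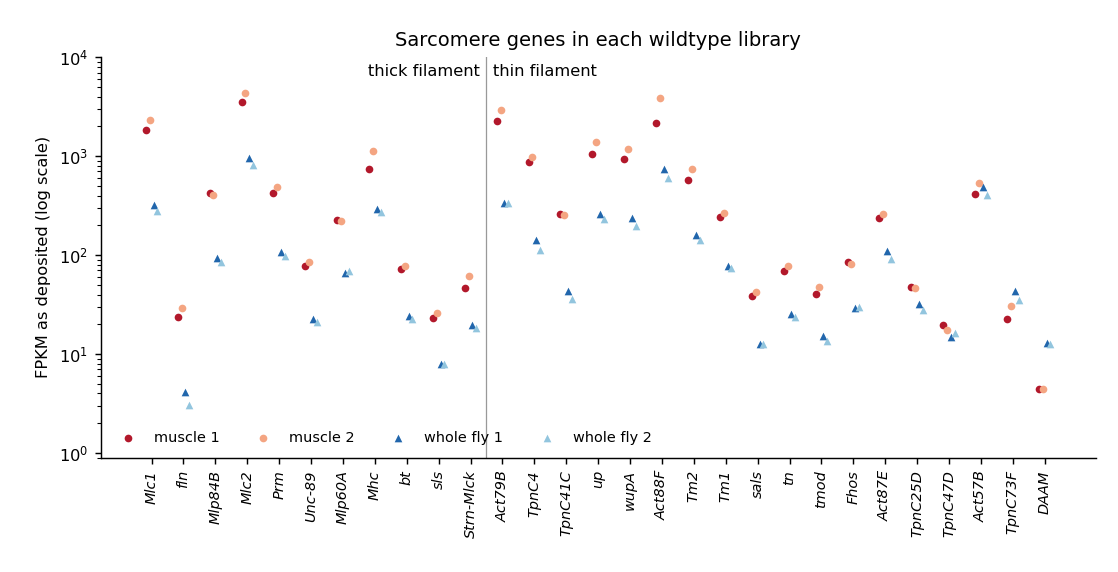
FPKM as deposited (log scale) of 11 thick filament and 18 thin filament genes in the 4 wildtype libraries, circles for muscle and triangles for whole fly. The circles lie above the triangles for every thick filament gene and for the thin filament genes from Act79B to TpnC47D, while Act57B overlaps and TpnC73F and DAAM are reversed; the FPKM of the 2 tissues come from tables scaled apart.

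At the Z-disc and attachment sites, 9 of 16 genes were higher in muscle and 4 lower in every pair, with a median log2 difference of 0.33. With median-ratio scaling these counts were 14 and 1. The PDZ-LIM genes Zasp52, Zasp66 and Zasp67, whose proteins anchor alpha-actinin, had ratios of 4.58, 4.21 and 4.98. Integrin-side genes did not follow them. mys, which encodes the beta integrin of position-specific receptors, was at 27.7 and 32.4 FPKM in muscle and 43.8 and 36.6 FPKM in whole fly, 1.33 times higher in the latter. mew, which encodes an alpha integrin, was at 6.63 and 6.45 FPKM in muscle and 14.9 and 14.2 FPKM in whole fly, 2.22 times higher in the latter. Integrins of this kind are used in most epithelia as well.

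Calcium handling divided in the same manner, with 7 of 16 genes higher in muscle and 6 lower in every pair (13 and 1 with median-ratio scaling). SERCA, which encodes the pump of the sarcoplasmic reticulum, was at 738 and 854 FPKM in muscle and 245 and 236 FPKM in whole fly, with a ratio of 3.33. RyR, which encodes the calcium release channel of the same organelle, was at 24.2 and 26.9 FPKM in muscle and 8.42 and 9.21 FPKM in whole fly, with a ratio of 2.91. Itpr, the release channel used by most other cells, was 1.99 times higher in whole fly. Calmodulin, encoded by Cam, was 1.41 times higher in whole fly.

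Among muscle transcription factors, 7 of 15 genes were higher in muscle and 3 lower in every pair (11 and 2 with median-ratio scaling). vg, which encodes vestigial, a cofactor of flight muscle identity, was at 11.9 and 12.8 FPKM in muscle and 1.76 and 1.42 FPKM in whole fly, with a ratio of 7.81. nau, which encodes nautilus, the fly relative of MyoD, was at 3.42 and 3.87 FPKM in muscle and 0.297 and 0.436 FPKM in whole fly, with a ratio of 9.97. Mef2, which encodes the general muscle regulator, was at 11.8 and 13.8 FPKM in muscle and 7.84 and 8.11 FPKM in whole fly, with a ratio of 1.62. The first 2 met the 4-fold rule. twi, a mesoderm regulator of the embryo, was at 0.353 and 0.102 FPKM in muscle and 1.27 and 1.1 FPKM in whole fly.

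The respiratory chain took more of a muscle library than any other list except the cytoplasmic ribosome. Of 67 nuclear genes of the respiratory chain and ATP synthase, 63 were higher in muscle in every pair, with a median log2 difference of 1.55, and they took 12.7% and 12.7% in muscle and 4.34% and 4.26% in whole fly. The summed ratio of 2.96 lay below that of thick filament genes (4.65). UQCR-Q, which encodes a subunit of complex III, was at 1382 and 1248 FPKM in muscle and 241 and 246 FPKM in whole fly, with a ratio of 5.41. Cyt-c-p, which encodes the somatic cytochrome c, was at 2492 and 2644 FPKM in muscle and 524 and 497 FPKM in whole fly, with a ratio of 5.05. COX7C, which encodes a subunit of complex IV, was at 968 and 912 FPKM in muscle and 236 and 222 FPKM in whole fly, with a ratio of 4.12. Those 3 were past 4-fold, leaving out 1 library at a time gave up to 6, and median-ratio scaling gave 45.

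The exceptions in the respiratory chain were few. COX4L, which encodes a relative of COX4, was at 4.74 and 2.73 FPKM in muscle and 24.6 and 30.9 FPKM in whole fly, 7.45 times higher in the latter. Genes listed as testis copies of respiratory chain subunits went the other way. Of 20 matched copies 18 passed the filter, and each of these was higher in whole fly in every pair (17 with median-ratio scaling). Their summed share was 0.00563% and 0.0027% in muscle and 0.0288% and 0.0359% in whole fly. The 4-fold rule was met by 10 of them, by 15 without muscle library 1, by 4 in the FPKM as deposited and by 0 with median-ratio scaling.

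Carbohydrate burning followed the respiratory chain. Of 13 glycolytic genes, 11 were higher in muscle in every pair (median log2 difference 1.0), and of 18 genes of the tricarboxylic acid cycle and pyruvate dehydrogenase, 14 were (median 1.19). Ald1, which encodes aldolase, was at 1847 and 2079.6 FPKM in muscle and 523 and 449 FPKM in whole fly, with a ratio of 4.06. Pglym78, which encodes phosphoglycerate mutase, was at 959 and 877 FPKM in muscle and 259 and 255 FPKM in whole fly, with a ratio of 3.58. Hex-C, which encodes a hexokinase known from fat body, was at 58 and 51.4 FPKM in muscle and 123 and 115 FPKM in whole fly, 2.17 times higher in the latter, the reverse of Hex-A, whose ratio was 1.57. SdhB, SdhC and SdhD, 3 subunits of succinate dehydrogenase, had ratios of 3.47, 2.94 and 3.36. ScsbetaG, the GTP-forming succinyl-CoA synthetase subunit, was 3.36 times higher in whole fly while ScsbetaA, its ATP-forming counterpart, had a muscle ratio of 1.29.

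The glycerol phosphate shuttle, which carries electrons from glycolysis into flight muscle mitochondria, was higher in muscle on both sides. Gpdh1, which encodes the cytosolic dehydrogenase, was at 595 and 603 FPKM in muscle and 174 and 167 FPKM in whole fly, with a ratio of 3.53. Gpo1, which encodes the mitochondrial oxidase, was at 615 and 564 FPKM in muscle and 146 and 149.7 FPKM in whole fly, with a ratio of 3.99. The malate-aspartate shuttle genes Got1 and Got2 were 1.86 and 1.69 times higher in whole fly. Mpcp1, which encodes a mitochondrial phosphate carrier, was at 2189 and 2253 FPKM in muscle and 374 and 355 FPKM in whole fly, with a ratio of 6.12, whereas its paralog Mpcp2 was 1.27 times higher in whole fly. The arginine kinase gene Argk1, which was paired only by identifier, was at 1149.5 and 1115 FPKM in muscle and 439 and 427 FPKM in whole fly, with a ratio of 2.62.

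**Figure D3:**
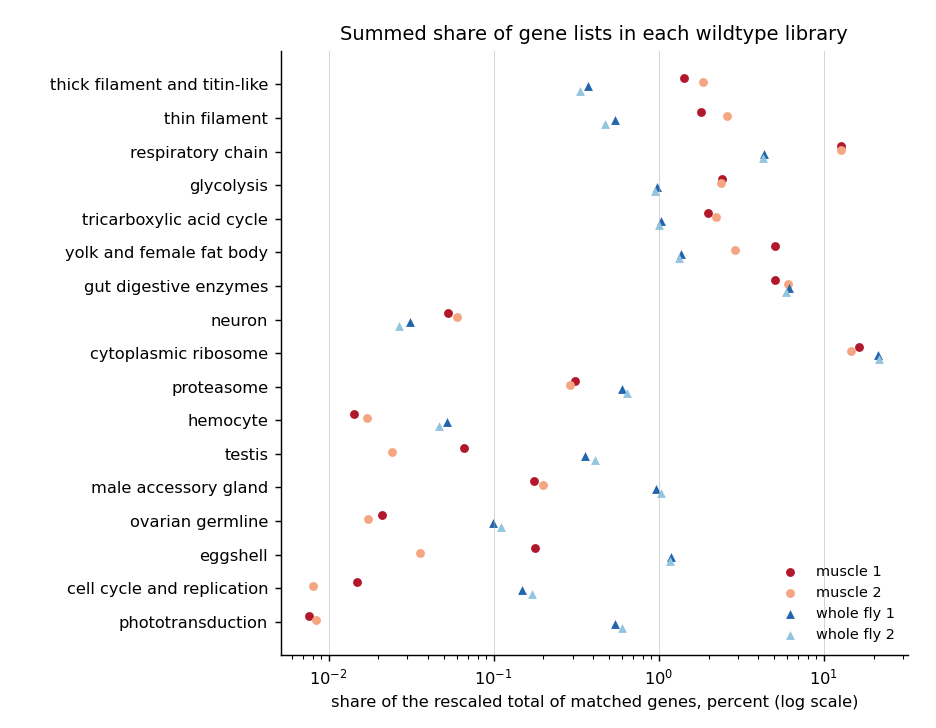
Summed rescaled values of 17 gene lists as a percent of all matched genes (log scale) in each wildtype library, circles for muscle and triangles for whole fly. The respiratory chain takes 12.7% of both muscle libraries and 4.34% and 4.26% of the whole-fly libraries, phototransduction genes take 0.00764% and 0.00844% of muscle, and the muscle circles lie apart for the eggshell, testis and yolk lists.

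The single most abundant transcripts of the muscle libraries were not sarcomere genes. CG16826 was at 15216 and 11859 FPKM in muscle and 2886 and 2630.0 FPKM in whole fly, the highest value of both muscle libraries, with a ratio of 4.91. whe was at 13213 and 11615 FPKM in muscle and 2412 and 2468 FPKM in whole fly, with a ratio of 5.09. lcs was at 7404 and 6179 FPKM in muscle and 1053 and 1244 FPKM in whole fly, with a ratio of 5.91. No role is given here for these 3 genes, and the libraries of a tissue lay close together. Nplp2, which encodes a secreted peptide precursor, was at 6652 and 4723 FPKM in muscle and 1198 and 1071 FPKM in whole fly, with a ratio of 5.01. All 4 met the 4-fold rule. The 10 highest genes also held Yp3, Yp2, CG34324 and the gut proteases Jon99Cii, betaTry and alphaTry, and 3 of the 10 (Yp3, betaTry and alphaTry) were among the 10 highest of whole fly.

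Yolk proteins, which the fat body and ovary of adult females make for the egg, were higher in muscle. Yp3 was at 12718 and 6571 FPKM in muscle and 3354 and 3134 FPKM in whole fly, with a ratio of 2.96. Yp1 was at 4878 and 2614 FPKM in muscle and 1336 and 1338 FPKM in whole fly, with a ratio of 2.79. Muscle library 1 held more than library 2 of both, and the lower muscle library still lay above whole fly. fit, which encodes a female-specific fat body peptide, was at 295 and 135 FPKM in muscle and 0.381 and 0 FPKM in whole fly (chromosome arm 3R, positions 21883924 to 21884454), which amounted to 3349 and 1469 reads in muscle and 4 and 0 reads in whole fly. The fat body list as a whole was mixed, with 5 of 17 genes higher in muscle and 8 lower in every pair (11 and 2 with median-ratio scaling). Its median log2 difference of -0.13 lay above the -0.68 of all genes. FASN1, a fatty acid synthase gene, was 1.71 times higher in whole fly, a direction that turns with median-ratio scaling. The larval storage proteins Lsp1beta and Lsp2 were called higher in muscle at 8-fold and at 4-fold respectively, yet muscle library 1 held 75.8 FPKM of Lsp1beta and library 2 held 16.6.

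Of the 20 genes past 8-fold in muscle, 3 were lysozymes, and LysD had the largest difference of the 20, followed by fit. Ratios of 2080 for LysD and 1127 for fit lay far above the 4.73 of the summed muscle markers. The source of these differences was not tested. LysD was at 3624 and 2738 FPKM in muscle and 1.16 and 1.89 FPKM in whole fly (chromosome arm 3L, positions 1210717 to 1211196), or 37183 and 27008 reads in muscle and 11 and 19 in whole fly. LysB was at 123 and 103 FPKM in muscle and 3.07 and 0.547 FPKM in whole fly, with a ratio of 62.8. LysP, which encodes a lysozyme known from salivary glands, was at 407 and 303 FPKM in muscle and 34 and 29.3 FPKM in whole fly, with a ratio of 11.2. LysX, another lysozyme gene, was 7.98 times higher in whole fly. LysB, LysC, LysD and LysE are near-identical neighbours and LysD shares bases with the LysC entry, so the split of reads among them is uncertain.

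Of the 20, 10 carried only a CG number, which is 50% against 43.7% of all genes tested. CG45080 was at 2225 and 1837 FPKM in muscle and 33.6 and 50.8 FPKM in whole fly (chromosome arm 3R, positions 13318991 to 13319270), with a ratio of 48. CG13947 was at 941 and 785 FPKM in muscle and 63.1 and 75.1 FPKM in whole fly, with a ratio of 12.5. CG12934 was at 70.1 and 57.8 FPKM in muscle and 0.322 and 0.405 FPKM in whole fly, with a ratio of 176. The tissues did not overlap for any of them. plh, which encodes pasang lhamu, was at 384 and 391 FPKM in muscle and 33.5 and 29.5 FPKM in whole fly, with a ratio of 12.4. Mal-B1, which encodes a maltase, was at 52.3 and 72.5 FPKM in muscle and 1.93 and 1.58 FPKM in whole fly, with a ratio of 35.9. CG5687, at chromosome arm 3L, positions 1933633 to 1939103, was at 22.5 and 24.2 FPKM in muscle and listed at 0 in all 4 whole-fly libraries of the series, though the whole-fly table gives it the same place. None of the 20 lay on the X chromosome, where 1797 genes passed the filter and 9 (0.501%) were past 4-fold in muscle, against 0.958% of all genes.

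Neuropeptide precursors supplied 3 of the 20 calls, and 5 of the 68 with median-ratio scaling. Of 44 such genes, a list drawn up after values were seen, 18 were higher in muscle and 13 in whole fly in every pair. FMRFa, which encodes the FMRFamide peptides, was at 50.4 and 59.6 FPKM in muscle and 4.4 and 3.14 FPKM in whole fly, with a ratio of 14.7. Capa, which encodes the capability peptides, was at 81.6 and 75.9 FPKM in muscle and 6.34 and 6.25 FPKM in whole fly, with a ratio of 12.5. Proc, which encodes proctolin, a peptide that motor neurons release onto muscle, was at 80.7 and 82.1 FPKM in muscle and 8.43 and 8.79 FPKM in whole fly, with a ratio of 9.49. FMRFa and Capa are best known from secretory neurons of the ventral nerve cord.

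Several peptides of the brain went the other way. Dsk, which encodes drosulfakinin, was at 0 and 0.342 FPKM in muscle and 11.7 and 10.9 FPKM in whole fly. Hug, which encodes the hugin peptides, was at 0.0453 and 0.0471 FPKM in muscle and 5.15 and 4.39 FPKM in whole fly, or 1 read in each muscle library. Ilp2, which encodes an insulin-like peptide of the brain's insulin-producing cells, was at 0.279 and 0.363 FPKM in muscle and 3.48 and 3.85 FPKM in whole fly. The muscle and whole-fly values did not overlap for any of the 3, and Dsk and Hug met the 8-fold rule. Of 8 Hox genes, also listed after values were seen, 1 was higher in muscle and 5 in whole fly in every pair (3 and 3 with median-ratio scaling). The list median of -0.57 lay near the -0.68 of all genes and above the -0.90 of genes that passed the filter. Dfd, which patterns the head, was at 0.0342 and 0 FPKM in muscle and 1.07 and 1.05 FPKM in whole fly. Ubx, active in the posterior thorax and abdomen, was at 2.71 and 2.27 FPKM in muscle and 2.87 and 2.3 FPKM in whole fly.

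General neuronal genes were present at a similar or higher level in muscle. Of 21 such genes, 17 were higher in muscle and 2 lower in every pair (20 and 0 with median-ratio scaling), with a summed share of 0.0525% and 0.0598% in muscle and 0.0309% and 0.0265% in whole fly. Gad1, which encodes the enzyme that makes GABA, was at 70.3 and 76 FPKM in muscle and 18.5 and 17.1 FPKM in whole fly, with a ratio of 4.12. VGlut, which encodes the vesicular glutamate transporter of motor neurons, was at 10 and 11.5 FPKM in muscle and 4.84 and 3.29 FPKM in whole fly, with a ratio of 2.66. elav, which encodes a pan-neuronal RNA-binding protein, was at 1.46 and 1.52 FPKM in muscle and 1.98 and 1.37 FPKM in whole fly, and the tissues overlapped. No gene of this list met the 4-fold rule in every pair, whereas 1 did without muscle library 1 and 1 did with median-ratio scaling. In whole tissue, fewer cells of a type cannot be told apart from less RNA per cell, here and below.

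Phototransduction genes had the largest summed difference of the 38 lists. Of 22 genes, 14 were called higher in whole fly at 8-fold, none was called higher in muscle, and the summed value was 71.2 times higher in whole fly. ninaE, which encodes the main rhodopsin, was at 0.0589 and 0.245 FPKM in muscle and 1287 and 1319.8 FPKM in whole fly, or 2 and 8 reads in muscle. Arr2, which encodes the major arrestin, was at 0.0605 and 0.0944 FPKM in muscle and 598 and 693 FPKM in whole fly, or 2 and 3 reads in muscle. trp, which encodes the light-activated channel, was at 0.0338 and 0.0586 FPKM in muscle and 67.4 and 71.3 FPKM in whole fly. Genes of this pathway that other cells also use were not among the 14. Galphaq, which encodes the G protein alpha subunit, was at 4.44 and 4.13 FPKM in muscle and 4.31 and 3.33 FPKM in whole fly. norpA, which encodes phospholipase C, was at 4.64 and 5.38 FPKM in muscle and 22.2 and 20.2 FPKM in whole fly, 4.21 times higher in the latter.

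Female germline and eggshell genes were lower in muscle. Of 19 eggshell genes, 13 were called higher in whole fly at 8-fold, and of 21 ovarian germline genes 7 were at 8-fold and 15 at 4-fold. Without muscle library 1 the germline count at 8-fold was 13, without whole-fly library 1 it was 11, and with median-ratio scaling it was 0, with 9 at 4-fold. Cp36, which encodes a chorion protein, was at 4.7 and 67.4 FPKM in muscle and 964 and 1221 FPKM in whole fly. osk, which encodes the posterior determinant oskar, was at 1.76 and 0.22 FPKM in muscle and 24.1 and 27.5 FPKM in whole fly, 26.5 times higher in the latter. nos, which encodes the translational repressor nanos, was at 4.92 and 0.352 FPKM in muscle and 36.4 and 45 FPKM in whole fly, 15.8 times higher in the latter, and the muscle libraries lay far apart. The exception was grk, the ligand that the oocyte sends to follicle cells, at 24.6 and 31.3 FPKM in muscle and 11 and 10.5 FPKM in whole fly and with a ratio of 2.62. Its entry overlaps Akap200, and how strand was handled is not stated.

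The muscle libraries differed from each other most in vitelline membrane genes, whose products form the inner eggshell. Vm26Aa was at 319 and 4.31 FPKM in muscle and 637 and 712 FPKM in whole fly. Vm34Ca was at 268 and 2.58 FPKM in muscle and 577 and 718 FPKM in whole fly. Vm32E was at 62.9 and 0.293 FPKM in muscle and 39.6 and 45.4 FPKM in whole fly. Library 1 reached or approached the whole-fly level for these genes and library 2 did not. Chorion genes went both ways. Cp15 and Cp19, on chromosome arm 3L, were at 4.91 and 7.33 FPKM in muscle library 1 and 0.85 and 0.897 FPKM in muscle library 2. Cp36 and Cp38, on the X chromosome, were the reverse, at 4.70 and 6.22 FPKM in muscle library 1 and 67.4 and 78.2 FPKM in muscle library 2. Over all genes that passed the filter, 710 (6.30%) differed more than 2-fold between the muscle libraries, against 77 (0.683%) between the whole-fly libraries.

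Most male genes were lower in muscle as well. Of 56 accessory gland and seminal fluid genes, 27 were called higher in whole fly at 8-fold and 38 at 4-fold (12 and 30 with median-ratio scaling), with a summed share of 0.174% and 0.198% in muscle and 0.966% and 1.04% in whole fly. Acp36DE, which encodes a seminal protein of sperm storage, was at 7.31 and 2.56 FPKM in muscle and 161 and 149 FPKM in whole fly, 31.8 times higher in the latter. Mst57Da was at 41.9 and 14.4 FPKM in muscle and 478 and 584 FPKM in whole fly, 19.1 times higher in the latter. Ebp, which encodes a mating plug protein of the ejaculatory bulb, was at 0.0612 and 0 FPKM in muscle and 729 and 764 FPKM in whole fly. EbpII, Sfp87B and Sfp60F were listed at 0 in both muscle libraries, and in whole fly they ranged from 394 to 935 FPKM. Against the list, 2 members were higher in muscle in every pair. Est-6, which encodes an esterase of the ejaculatory duct, was at 387 and 360.0 FPKM in muscle and 149 and 143 FPKM in whole fly, with a ratio of 2.56. Acp1, which the table annotates as an adult cuticle protein, as it does Acp65Aa of the same list, was at 267 and 513 FPKM in muscle and 88.9 and 56.4 FPKM in whole fly, with a ratio of 5.44.

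Of 47 testis genes, 41 were higher in whole fly in every pair, 23 at 4-fold and 1 at 8-fold. betaTub85D, which encodes the tubulin of the sperm tail, was at 10.7 and 5.34 FPKM in muscle and 84.6 and 104 FPKM in whole fly, 11.8 times higher in the latter. dj, which encodes a sperm tail protein, was at 7.39 and 2.13 FPKM in muscle and 34.8 and 33.8 FPKM in whole fly, 7.3 times higher in the latter. Muscle library 1 held 0.0659% of its total in this list and library 2 held 0.0241%, and without library 1 the number of calls at 8-fold was 24. With median-ratio scaling 37 were higher in whole fly in every pair, 3 at 4-fold and 0 at 8-fold. Of 11 listed genes of the Y chromosome, 5 passed the filter, and all 5 were higher in whole fly in every pair (3 with median-ratio scaling), with a list median of -0.76 that lay near the -0.68 of all genes.

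Proliferation genes were lower in muscle almost without exception, as 17 of 20 were called higher in whole fly at 8-fold and all 20 were higher in every pair. CycB, which encodes cyclin B, was at 19.9 and 5.83 FPKM in muscle and 192 and 222 FPKM in whole fly, 16.3 times higher in the latter. PCNA, which encodes the replication clamp, was at 4.24 and 2.05 FPKM in muscle and 60.7 and 72.8 FPKM in whole fly, 21.4 times higher in the latter. RnrS, which encodes a subunit of ribonucleotide reductase, was at 4.17 and 3.73 FPKM in muscle and 59.5 and 66.6 FPKM in whole fly, 16 times higher in the latter. With median-ratio scaling all 20 were still higher in whole fly, and 2 were past 8-fold. RpS5b, a ribosomal paralog used in the ovary, was 14.8 times higher in whole fly, while RpS5a was 1.09 times higher.

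Digestive enzymes split within families. Of 44 genes, 13 were called higher in whole fly and 3 (the lysozymes above) higher in muscle at 8-fold, while the summed share differed little, at 5.07% and 6.09% in muscle and 6.16% and 5.89% in whole fly. Jon99Cii, which encodes a serine protease, was at 4541 and 4703 FPKM in muscle and 1415 and 1365 FPKM in whole fly, with a ratio of 3.34. Jon99Fi, which encodes a relative of it, was at 47.5 and 30.6 FPKM in muscle and 691 and 616 FPKM in whole fly, 16.8 times higher in the latter. These relatives thus went in opposite directions. betaTry was at 3769 and 5226 FPKM in muscle and 3573 and 3214 FPKM in whole fly, with a ratio of 1.34. iotaTry was at 0.114 and 0 FPKM in muscle and 51.1 and 52.7 FPKM in whole fly, with 2 and 0 reads in muscle. Mal-A3, which encodes a maltase, was at 0.704 and 0.759 FPKM in muscle and 129 and 115 FPKM in whole fly, 166 times higher in the latter. The trypsin genes alphaTry and betaTry are near-identical, as are gammaTry and deltaTry, and reads could be split wrongly within each pair. Trypsin genes thus ranged from above the whole-fly level to nearly no reads in muscle.

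**Figure D4:**
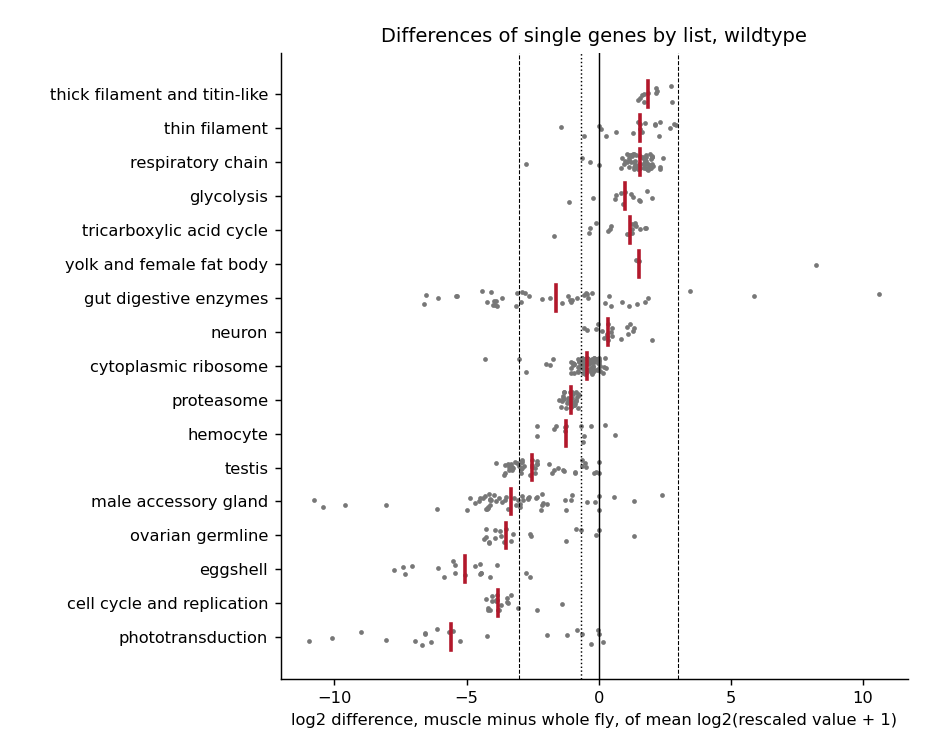
Log2 difference (muscle minus whole fly, of the mean log2 of rescaled value plus 1) for every matched gene of the same 17 lists; red bars are list medians, the solid line is 0, the dotted line the median of all matched genes (-0.68) and the dashed lines 8-fold. The respiratory chain and thick filament lists form tight groups to the right of 0, while gut enzymes run from -6.62 (Mal-A3) to 10.62 (LysD).

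Housekeeping machinery lay between these extremes. All 32 proteasome genes were higher in whole fly in every pair, against 74.4% of all genes tested. Their median log2 difference was -1.03, against -0.90 for all genes that passed the filter. Their summed share was 0.311% and 0.289% in muscle and 0.598% and 0.64% in whole fly. With median-ratio scaling the proteasome median was -0.25, and 20 of the 32 remained higher in every pair. Of 87 cytoplasmic ribosome genes, 72 were higher in whole fly in every pair (median -0.44), but with median-ratio scaling 59 were higher in muscle (median 0.35), so no direction is given. The mitochondrial ribosome, with a median of -0.37 that moved to 0.39, gave none either. The respiratory chain median became 2.34 with median-ratio scaling, which could move it only upward.

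Chaperones were mixed, with 6 of 22 genes higher in muscle and 10 lower in every pair (10 and 7 with median-ratio scaling). Hsc70-1, which encodes a constitutive heat shock relative, was at 170.1 and 188 FPKM in muscle and 29.7 and 27.4 FPKM in whole fly, with a ratio of 6.31. l(2)efl, which encodes a small heat shock protein, was at 261 and 265 FPKM in muscle and 72.2 and 72.7 FPKM in whole fly, with a ratio of 3.64. Hsp26, which encodes a small heat shock protein also made in ovary, was at 36.6 and 19.4 FPKM in muscle and 163 and 189 FPKM in whole fly, 6.33 times higher in the latter. The small heat shock proteins thus stood on both sides. stv, which encodes starvin, a cochaperone of muscle Z-discs, was at 58.1 and 71.9 FPKM in muscle and 31.4 and 28.2 FPKM in whole fly, with a ratio of 2.2. Hemocyte genes were lower in muscle for 10 of 13 in every pair, a share near the 74.4% of all genes, and with median-ratio scaling 7 were lower and 3 higher. The collagen IV genes Col4a1 and vkg, which fat body and blood cells secrete, were 5.22 and 5.23 times higher in whole fly.

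The libraries labelled mutant gave a second set of muscle and whole-fly values that shares no library with the wildtype set, though it shares both tables. In them 8 genes (0.0712%) were called higher in muscle and 309 (2.75%) in whole fly at 8-fold. Of the 20 wildtype muscle calls, 4 were also called in the mutant, which is 20% of the wildtype calls and 50% of the mutant ones. Of the 387 whole-fly calls, 172 were, which is 44.4% and 55.7%. The mutant muscle libraries were unlike each other, with 10676 and 8953 genes at 1 rescaled unit or more. The testis list took 0.271% and 0.00355% of them, and the accessory gland list 0.3% and 0.0706%. A call needs every pair, and the part of this spread in the shared counts was not tested. At 4-fold the mutant libraries called 78 (0.694%) and 765 (6.81%), of which 45 muscle calls (41.7% of the wildtype and 57.7% of the mutant calls) and 568 whole-fly calls (39.9% and 74.2%) were shared. Non-overlapping values in the same direction were seen for 14 of the 20 and 363 of the 387, against 21.5% and 56% of all genes tested in the mutant.

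The 6 largest wildtype differences that were not called in the same direction in the mutant were those of LysD, fit, Sfp87B, EbpII, CG18628 and Obp56g. LysD was at 161 and 68.9 FPKM in mutant muscle and 165 and 116 FPKM in mutant whole fly, and the groups overlapped there. fit was at 168 and 171 FPKM in mutant muscle and 22.7 and 26 FPKM in mutant whole fly, still higher in muscle. CG18628, at 0.14 and 1.02 FPKM in muscle and 833 and 894 FPKM in whole fly, was at 483 and 0.984 FPKM in mutant muscle and 329.6 and 448 FPKM in mutant whole fly, where mutant muscle library 1 alone was high. EbpII, Sfp87B and Obp56g were at 71.5, 102.7 and 86.5 FPKM in that same library and listed at 0 in mutant muscle library 2. CG45080 repeated its wildtype pattern, at 1105 and 2381 FPKM in mutant muscle and 20.8 and 36.6 FPKM in mutant whole fly.

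The summed filament differences were smaller in the mutant libraries, but not every muscle gene followed. The summed muscle to whole-fly ratio of thick filament genes was 4.65 in wildtype and 2.58 in mutant, and that of thin filament genes was 4.31 and 2.42. Mutant whole flies held 2.37 times the thick filament share of wildtype whole flies, and mutant muscle held 1.31 times that of wildtype muscle. The list medians moved less, from 1.86 to 1.59 for thick and from 1.58 to 1.48 for thin filament genes, while the median over all genes tested was -0.90 in wildtype and -0.69 in mutant. Mhc had a ratio of 3.34 in wildtype and 3.55 in mutant, and the summed ratio of Z-disc and attachment genes was 2.39 and 3.22. The respiratory chain ratio was 2.96 in wildtype and 2.03 in mutant. The difference between genotypes was not tested, as each group has only 2 libraries. Wildtype and mutant values of a tissue share a table, while each muscle to whole-fly ratio joins 2 tables scaled apart.

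**Figure D5:**
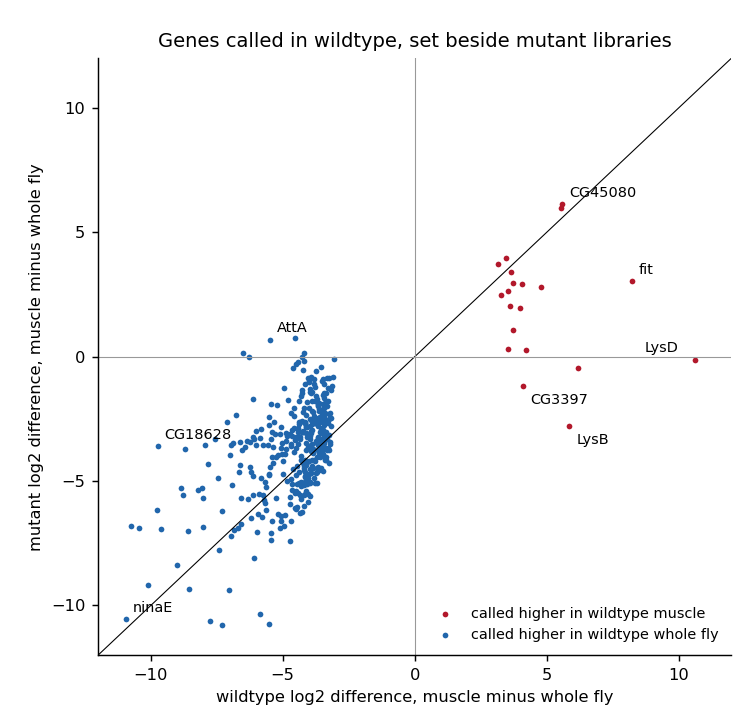
Log2 difference between muscle and whole fly in wildtype (x axis) and in the libraries labelled mutant (y axis) for the 20 genes called higher in wildtype muscle (red) and the 387 called higher in wildtype whole fly (blue); the diagonal marks equal differences. Most blue points stay below 0 in the mutant, and LysD, LysB and CG3397 drop to 0 or below.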

How the data were processed

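mRNA libraries of adult fly muscle and whole fly were sequenced. The authors deposited FPKM in 2 tables, 1 per tissue. Aligner, counting tool and strand handling are not stated. A mouse genome build stands in the submitters' processing notes, but the tables hold fly genes on release 6 coordinates. Whole reads were recovered, since each value multiplied by its gene length came in steps of 1 size per library for 100% of values (tolerance 0.1 reads), giving 19332056 to 21343286 reads per wildtype library. Whole-fly columns name genotype and repeat only and were assigned by elimination. Of 13968 and 13966 protein-coding entries, 13432 shared a symbol, 4 of these lay at another locus and were dropped, and 13428 remained. No mitochondrial gene was matched. Log2 values used a pseudocount of 1. Summed shares are percent of the rescaled total. The code of the calling rule was run on simulated reads that had seeded 16-fold changes and otherwise the same profile in both tissues. That run does not measure the error of the calls given here. Python 3.11.15 with pandas 2.3.3 and numpy 2.4.6 was used.

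Gene lists (36, and 2 added after values were seen), markers, rules and the choice of tissues were made with earlier results of these data known. Genes were named by rule: the 10 highest per tissue, the 10 largest differences each way, 5 called genes of no list, up to 4 called and 2 contrary members per list, the 6 least repeatable in muscle, 3 markers and 6 calls absent from the mutant. Other genes were named after their values were seen.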

Additional observations from a re-analysis of the deposited data

Results flagged for a closer look

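Of the genes called at 8-fold in wildtype, 2 of the 20 higher in muscle and 2 of the 387 higher in whole fly did not overlap in the mutant libraries either, but in the opposite direction. At 4-fold these numbers were 9 of 108 and 5 of 1423. Overlap is judged on rescaled values, on which AttA does not overlap in the mutant although its FPKM do. The difference between genotypes was not tested. AttA, an attacin gene, had a log2 difference of -5.50 in wildtype, at 0.296 and 2.46 FPKM in muscle and 50.1 and 97.6 FPKM in whole fly, and of 0.69 in mutant, at 2.56 and 1.94 FPKM in mutant muscle and 1.04 and 2.04 FPKM in mutant whole fly. CG3397 had 4.11 in wildtype, at 26.3 and 17.7 FPKM in muscle and 0.427 and 1.25 FPKM in whole fly, and -1.17 in mutant, at 11.2 and 9.0 FPKM in mutant muscle and 30.2 and 26.1 FPKM in mutant whole fly. CG43055 had -4.54 in wildtype, at 0.776 and 1.94 FPKM in muscle and 35.5 and 47.2 FPKM in whole fly, and 0.77 in mutant, at 5.08 and 4.9 FPKM in mutant muscle and 3.99 and 2.76 FPKM in mutant whole fly. LysB had 5.86 in wildtype, at 123 and 103 FPKM in muscle and 3.07 and 0.547 FPKM in whole fly, and -2.79 in mutant, at 12.5 and 5.29 FPKM in mutant muscle and 81 and 63.5 FPKM in mutant whole fly. In all 4 the whole-fly values moved more between genotypes than the muscle values did.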

How the results depend on the processing

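No paired analysis was possible because no result comes from a test, and the repeat numbers of muscle and whole fly are not said to mark shared flies. The counts of 20 genes higher in muscle and 387 higher in whole fly moved to 68 and 206 with median-ratio scaling, to 35 and 805 with a pseudocount of 0.1, to 13 and 162 with a pseudocount of 5, to 108 and 1423 at 4-fold, and to 7 and 145 at 16-fold. Leaving out 1 library gave between 21 and 33 and between 410 and 862, the upper ends without muscle library 1. With fewer pairs to satisfy, these counts could not fall, so only the size of the rise differs between libraries. All 20 muscle calls and 206 of the whole-fly calls remained under median-ratio scaling. As it raises every muscle to whole-fly ratio, it could remove only whole-fly calls, so the 20 had to remain. Of the genes called in both genotypes (4 and 172), the mutant libraries alone called 8 and 309. The counts stayed within 1.5 times under deposited FPKM (19 and 272), a common gene length, no filter, a mean of at least 5 and matching by identifier. No called gene or list median of at least 2-fold changed sign, which median-ratio scaling, with its factor of 1.73, could not have brought about. Of 38 list medians, 9 of smaller size changed sign under median-ratio scaling. Over all alternatives, 90 of 380 list medians and 180 of 1000 values of named genes moved by more than the spread between repeats. With 2 libraries a group, the spread rests on 1 difference, and genes near 1 rescaled unit rest on few reads.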

Other observations

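Antimicrobial peptides, which flies secrete on infection, varied between the repeats of both tissues. DptA, which encodes diptericin A, was at 8.77 and 153 FPKM in muscle and 17.1 and 294 FPKM in whole fly. Dro, which encodes drosocin, was at 18.1 and 145 FPKM in muscle and 6.72 and 137 FPKM in whole fly. Mtk, which encodes metchnikowin, was at 14.1 and 81 FPKM in muscle and 3.59 and 59.5 FPKM in whole fly. Library 2 was the higher in each tissue for all 3. Of 28 such genes past the filter, 12 were more than 2-fold higher in library 2 of muscle, 8 in library 2 of whole fly and 7 in both. Among all genes tested, 6.30% differed more than 2-fold in either direction between the muscle libraries, on the value plus 1. Between the whole-fly libraries 0.683% did. The share of all genes higher in library 2 of both tissues was not counted. Repeat numbers are not said to mark a shared batch. Drs, which encodes drosomycin, was at 52.7 and 178 FPKM in muscle and 272 and 263 FPKM in whole fly, and its whole-fly libraries lay close together. AttA, AttD and Drsl2 were called higher in whole fly at 8-fold (5 genes without muscle library 2), while BomBc3 was past 4-fold in muscle.

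Chromosome 4, a small and largely heterochromatic chromosome, had a median log2 difference of -0.08 over 72 genes, against -0.97 to -0.83 on the 5 large arms, and in the mutant libraries 0.47 over 73 genes. Gene length moved with the difference, as the median was -1.06 in the shortest of 4 equal length classes and -0.72 in the longest, with Spearman's rho of 0.13 over 11271 genes (a description, since genes share their libraries). The part of length in the chromosome 4 value was not tested.

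A few genes had no reads at all in 1 table. Listed at 0 in all 4 muscle libraries and at least 10 rescaled units in every whole-fly library were 8 genes, among them Send1, a protease gene of the spermathecae, at 38.3 and 24.6 FPKM in wildtype whole fly, and Cpr72Ec, a cuticle protein gene, at 13 and 13.4 FPKM. The reverse held for CG5687 alone. Over all 8 libraries 645 matched genes were listed at 0.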
